A study of Mus musculus with 12 samples.

Results

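Monocytes, macrophages and dendritic cells are recognised by a set of genes for growth factor and chemokine receptors, phagocytic receptors, lysosomal enzymes and MHC class II antigen presentation, and 31 such genes were followed in mouse bone marrow progenitors that carried a Myc or a control retrovirus. The members were the probe sets whose single gene symbol is Csf1r, Ccr2, Cx3cr1, Adgre1, Cd14, Itgax, Fcgr1, Fcgr4, Tyrobp, Trem2, Msr1, Mrc1, Cd36, Apoe, Pla2g7, C1qa, C1qb, C1qc, Cd68, Mpeg1, Ctss, Lgmn, Gpnmb, Cybb, Cd86, Cd74, Ciita, H2-Aa, H2-Ab1, H2-Eb1 or H2-DMa. All 31 symbols were found, each with 1 probe set, among 19938 genes measured. They were picked by gene symbol, with no measured value in the rule.

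Myeloid progenitors that receive Csf1 through its receptor Csf1r can mature into monocytes and macrophages, and the factor PU.1 (Spi1) is needed for that path. Mature phagocytes bind antibody-coated particles through Fc receptors, whose signal passes through adaptors with an ITAM motif such as Tyrobp, and kill what they take up with the NADPH oxidase, whose catalytic subunit is Cybb. Peptides are loaded in endosomes onto MHC class II, a pair of chains held by the invariant chain Cd74, and the coactivator Ciita switches the class II genes on. Myc is a transcription factor that drives growth and holds back terminal myeloid maturation when it is kept high, and Zfx is a zinc finger transcription factor encoded on the X chromosome.

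RNA was measured on 12 arrays, 3 in each of 4 groups. Every group came from c-Kit+ bone marrow progenitors of CreER mice given tamoxifen by gavage, 5 mg a day for 3 days, and every group was infected with a retrovirus that carries the GFP marker. Cells were kept for 48 h in RPMI 1640 with 20% serum and 10 ng/mL each of IL-3, IL-6 and SCF, sorted for GFP and cultured for 4 more days. The groups were GFP alone in Zfx wt/y CreER cells (GFP Zfx wt), Myc in Zfx wt/y CreER cells (Myc Zfx wt), GFP alone in Zfx fl/y CreER cells (GFP Zfx ko) and Myc in Zfx fl/y CreER cells (Myc Zfx ko). The fl allele is cut by CreER once tamoxifen is present, and no source used here names the promoter that drives CreER. The labels number the arrays of each group 1, 2 and 3 without saying what a number stands for or whether the arrays came from separate mice, so p-values measure the spread between these arrays, which may be technical. No CSF1 was listed among the cytokines.

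The Myc probe set was 1.74-fold higher with the Myc virus in Zfx wt cells (adjusted p = 7.24e-04) and 1.87-fold higher in Zfx ko cells (adjusted p = 3.42e-04). The Zfx probe set was not lower under the Zfx ko label: its mean intensity was 946 ± 72.9 (SD, n = 3) in GFP Zfx wt and 1021 ± 64.9 in GFP Zfx ko, and 992 ± 26.4 against 1048 ± 63.2 with Myc (adjusted p = 0.619 and 0.788). Where its probes lie relative to the deleted part is not known here, so these values do not check the deletion, and the arrays are called by their labels. The median intensity of an array was 127 to 137.2. The sum of 9 B lymphoid marker intensities ranged from 1092 to 1648 and that of 8 T and NK markers from 448 to 520.2, and 0 of these 17 genes passed the test in any contrast.

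Intensities are on the linear scale of RMA, a method that corrects background, makes the arrays' distributions equal and summarises each probe set, so a level of 1 probe set is compared only with itself. Differences are log2 differences of group means from limma, with Benjamini-Hochberg adjustment over all 19938 genes and 0.05 as the threshold. Arrays with the same number deviated together in every group, so each comparison is given without the number and, where that changes the call, with the number as a block, called the replicate block here. The RNA is from whole cultures, so fewer cells of a type and less RNA per cell cannot be told apart in any value below.

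The replicate number, not the virus or the genotype, was the largest source of variation in most of these genes. It has more levels than the virus or the genotype, so with no effect at all it would be expected to take a larger share than either. In 21 of the 31 members it took the largest share of the variance over the 12 arrays, against 7194 of all 19938 genes (36.1%). The median share was 58.9% over the members and 28% over all genes, while the virus took 6.16% and 10.1% and the genotype 8.28% and 7.02%. The virus was the largest part for Cybb (93.8%), Fcgr4 (81.4%), Apoe (62.2%) and Tyrobp (61.1%). The genotype was the largest part for Trem2 (60.5%), Pla2g7 (60%), Lgmn (58.8%), Csf1r (44.8%) and Cd86 (40.7%). For Cx3cr1, a chemokine receptor of patrolling monocytes, the residual was largest (53%), and its intensity stayed between 143 and 175 on all 12 arrays.

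**Figure D1:**
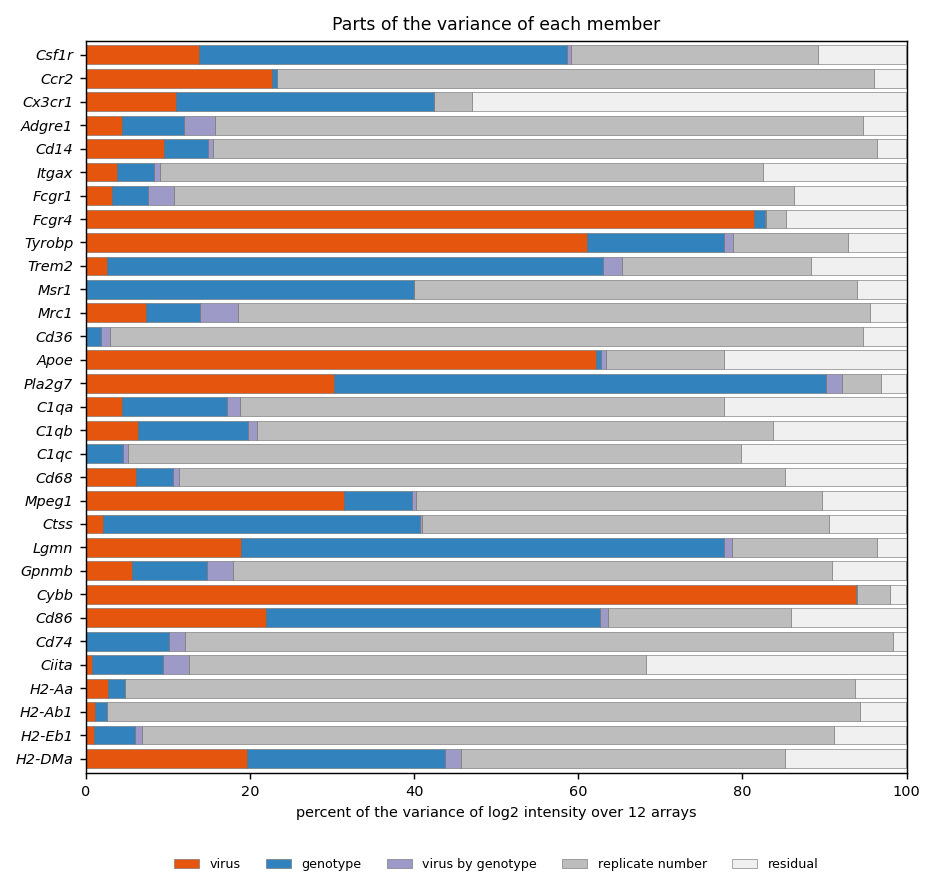
Share of the variance of the log2 intensity of each of the 31 genes over the 12 arrays, in percent, split into virus, genotype, virus by genotype, replicate number and residual as stacked bars. The replicate number is the widest segment for 21 genes, and the virus takes 93.8% for Cybb.

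MHC class II genes set the arrays numbered 2 apart from the rest in every group. H2-Aa, the alpha chain of I-A, had intensities of 231, 1510 and 137 on arrays 1, 2 and 3 of GFP Zfx wt, 86.0, 1607 and 78.3 in Myc Zfx wt, 318, 2960 and 177 in GFP Zfx ko and 99.2, 5651 and 72.3 in Myc Zfx ko. H2-Ab1, the beta chain of I-A, read 254, 1499 and 159 in GFP Zfx wt, 153, 1120 and 179 in Myc Zfx wt, 299, 2244 and 222 in GFP Zfx ko and 172, 3607 and 110.1 in Myc Zfx ko. H2-Eb1, the beta chain of I-E, read 306, 820.0 and 230.2 in GFP Zfx wt, 208, 682 and 165 in Myc Zfx wt, 359, 1205 and 257 in GFP Zfx ko and 228, 2373 and 197 in Myc Zfx ko. All 4 arrays numbered 2 lay above all 8 others for each of these chains, by 19.3-fold in H2-Aa, 10.4-fold in H2-Ab1 and 4.74-fold in H2-Eb1. Cd74, the invariant chain, read 418, 1877 and 246 in GFP Zfx wt, 211, 1781 and 209 in Myc Zfx wt, 609, 2988 and 319.8 in GFP Zfx ko and 771, 4558 and 376 in Myc Zfx ko, and was 7.31-fold higher on the arrays numbered 2. Ciita, the coactivator of these genes, was also separated, by 1.49-fold, from 107, 117 and 97.0 in GFP Zfx wt and 96.9, 119 and 91.2 in Myc Zfx wt to 106, 138 and 98.2 in GFP Zfx ko and 103, 239 and 88.5 in Myc Zfx ko. H2-DMa, a chain of the peptide loading factor H2-DM, was the class II member whose arrays numbered 2 overlapped the others.

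The promoters of H2-Aa and H2-Eb1, genes of the class II region on chromosome 17, are shown because these chains moved together between arrays. Each is the 250 bases before the annotated start in RefSeq (GRCm38.p6), written 5′ to 3′ on the gene's strand, with capitals for a match to the CCAAT box (CCAAT or its reverse complement ATTGG) or to the palindromic Zfx core AGGCCT.
H2-Aa, chr17:34287824-34288073, minus strand: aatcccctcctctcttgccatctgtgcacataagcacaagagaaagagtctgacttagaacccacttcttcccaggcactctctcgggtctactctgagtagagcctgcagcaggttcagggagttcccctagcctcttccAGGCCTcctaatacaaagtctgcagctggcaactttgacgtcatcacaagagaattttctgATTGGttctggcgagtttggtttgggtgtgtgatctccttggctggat
H2-Eb1, chr17:34305617-34305866, plus strand: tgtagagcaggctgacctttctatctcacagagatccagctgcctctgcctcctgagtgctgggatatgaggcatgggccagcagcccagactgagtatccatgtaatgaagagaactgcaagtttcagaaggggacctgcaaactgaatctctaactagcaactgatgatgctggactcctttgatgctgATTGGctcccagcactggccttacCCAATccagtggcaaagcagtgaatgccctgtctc
The CCAAT box, read by the NF-Y factors of the class II promoter complex, begins 48 bases before the start in H2-Aa, and 59 and 35 bases before it in H2-Eb1. The Zfx core begins 109 bases before the start in H2-Aa. Over the 25 windows that 21 of the members had, a CCAAT box occurred in 12 (48%), against 33.8% of 32851 windows of all genes, and AGGCCT in 2 (8%) against 8.7%. The PU.1 core GAGGAA, in either strand, occurred in 10 windows (40%) against 23.3%, and the Myc E-box CACGTG in 1 (4%), that of Lgmn, against 6.02%. These matches describe letters in these windows and were not tied to binding.

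**Figure D2:**
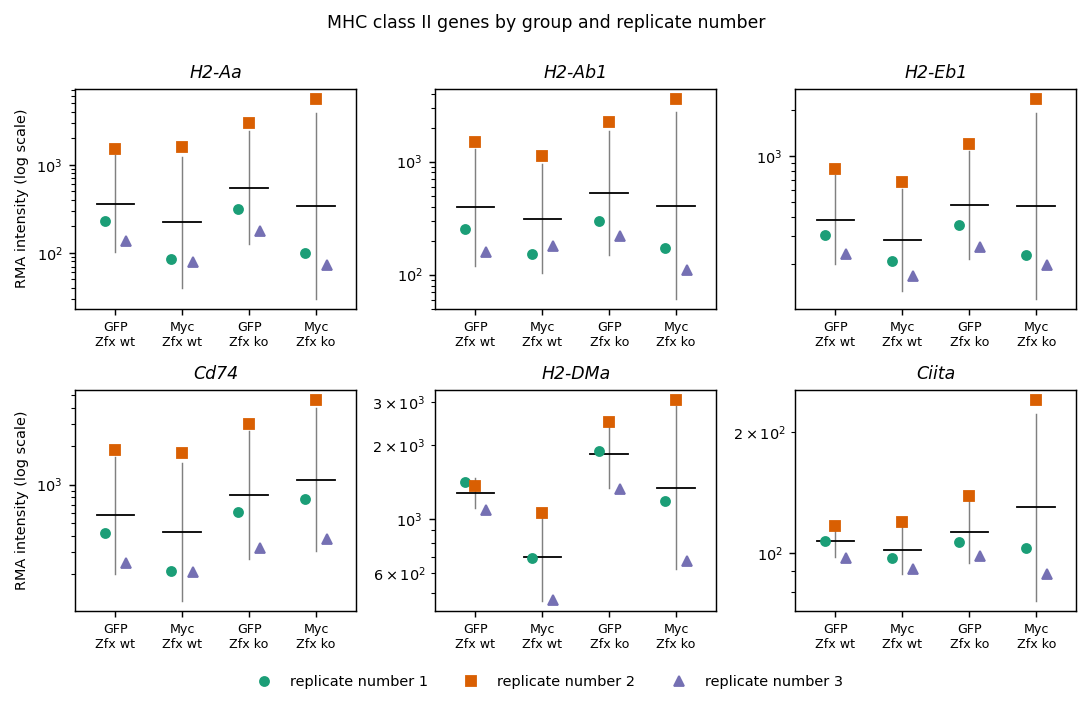
RMA intensity (log axis) of H2-Aa, H2-Ab1, H2-Eb1, Cd74, H2-DMa and Ciita in the 4 groups, with 1 point per array coloured by replicate number, a line at the geometric mean and a bar of ± SD of log2 values over 3 arrays. For 5 of the 6 genes the arrays numbered 2 are the highest in every group, as in H2-Aa from 1510 to 5651.

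The same arrays were high for other genes of phagocytes. Besides the class II genes, all 4 arrays numbered 2 lay above the 8 others for Cd36 (9.65-fold), a fatty acid and scavenger receptor, Gpnmb (7.51-fold), a glycoprotein of lysosome-rich macrophages, Itgax (3.81-fold), the integrin CD11c, Cd14 (3.76-fold), the lipopolysaccharide co-receptor, and Adgre1 (1.83-fold), the F4/80 antigen. That made 10 of 31 members higher on the arrays numbered 2, against 2.52% of all genes. Ccr2, the chemokine receptor that brings monocytes out of the marrow, went the other way, 3.53-fold lower with no overlap, and C1qc was 1.18-fold lower, so 2 members were lower against 5.6% of all genes. The arrays numbered 3 lay below the rest for Fcgr1 and Cd68 and above it for C1qb. That made 2 of 31 members lower and 1 higher, against 74 lower and 31 higher of all 19938 genes.

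Values on single arrays show how far these genes moved. Cd36 read 35.8, 339.9 and 35.5 in GFP Zfx wt, 37.1, 149 and 35.0 in Myc Zfx wt, 35.1, 414 and 35.9 in GFP Zfx ko and 38.7, 700.0 and 35.6 in Myc Zfx ko. Gpnmb read 333, 3146 and 206 in GFP Zfx wt, 578, 1970 and 279.8 in Myc Zfx wt, 281, 5044 and 343 in GFP Zfx ko and 1399, 4462 and 1287 in Myc Zfx ko. Itgax read 104, 311 and 90.9 in GFP Zfx wt, 87.4, 120.4 and 83.2 in Myc Zfx wt, 96.8, 634 and 86.3 in GFP Zfx ko and 76.4, 527 and 79.9 in Myc Zfx ko. Outside the arrays numbered 2, Cd36 never passed 38.7 and Itgax never passed 104, so both stayed low there. Cd14 read 442, 1924 and 429.7 in GFP Zfx wt, 416, 1076 and 309 in Myc Zfx wt, 599, 2786 and 794 in GFP Zfx ko and 517, 1552 and 331 in Myc Zfx ko. Ccr2 read 2493, 649 and 1508 in GFP Zfx wt, 1359, 341 and 757 in Myc Zfx wt, 1921, 509.9 and 2063 in GFP Zfx ko and 1387, 224 and 717 in Myc Zfx ko, with the lowest value of every group on the array numbered 2.

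Other genes of these pathways differed on the arrays numbered 2 in both directions, some without overlap and some with it. Among 17 transcription factors of monocytes and macrophages, Cebpb (1.45-fold), Mitf (1.68-fold) and Pparg (1.44-fold) were higher without overlap on the arrays numbered 2, and 0 were lower. Among 31 further monocyte and macrophage genes, Tlr4 (2.26-fold) and Lgals3 (1.81-fold) were higher. The costimulator Cd80 was 1.74-fold higher, while Flt3 and Xcr1, which mark dendritic cell precursors and cross-presenting dendritic cells, were lower, among 16 dendritic cell genes. Of 14 other class II genes, Nfyc was higher (1.11-fold) and Nfya lower (1.38-fold), again without overlap. Of 15 genes of class I presentation, Nlrc5 (1.29-fold) and Psme1 (1.13-fold) were lower without overlap, and 0 were higher. Larger differences with overlapping arrays, named after their values were seen, were those of the lectin receptors Clec4n (8.76-fold higher) and Clec7a (2.97-fold higher), the transcription factor Egr2 (2.60-fold higher), Csf1 itself (2.42-fold higher), the complement receptor C3ar1 (2.31-fold higher) and the protease Ctsl (2.23-fold higher). Fibronectin Fn1 (5.14-fold), the coagulation factor gene F13a1 (4.28-fold), Ly86, a partner of a Toll-like receptor relative (2.83-fold), and Ms4a6c (2.41-fold) were lower. Among the marker lists, arrays numbered 2 were without overlap higher for the stem cell gene Procr (2.82-fold) and lower for Flt3 (1.25-fold), Hlf (1.20-fold), the neutrophil gene Retnlg (4.7-fold) and the lymphoid genes Rag1 (1.13-fold), Cd8a (1.11-fold) and Zap70 (1.08-fold). With overlap, the neutrophil genes Mmp9 (2.51-fold), Ly6g (2.05-fold), Csf3r (2.05-fold), Cxcr2 (1.68-fold) and Ltf (1.56-fold) were lower. S100a9 (1.2-fold), Ngp (1.14-fold), S100a8 (1.11-fold), Camp (1.09-fold) and Lcn2 (1.02-fold) were higher, also with overlap. The mast cell, erythroid, megakaryocyte and eosinophil lists had no gene without overlap, and the eosinophil gene Ear6 was 2.03-fold higher with overlap. What these arrays share beyond their number is not in the labels, and its part in the results was not tested.

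Cybb of the oxidase and the Fc receptor gene Fcgr4 were lower with Myc in both genotypes. In Myc Zfx wt against GFP Zfx wt, 4 of the 31 members passed the test, all of them lower, against 9.28% of all genes called in either direction (6.17% higher, 3.11% lower). They were Cybb, Fcgr4, Tyrobp and Pla2g7. The median log2 difference of the 31 members was -0.37, with 25 of them negative, against 0.00 over all genes. Under the Zfx ko label, 2 of 31 members passed, Cybb and Fcgr4, both lower, against 13.2% of all genes (8.58% higher, 4.59% lower), and the median was -0.13 with 21 negative. The members called were 12.9% of the 31 in Zfx wt and 6.45% in Zfx ko. These shares were near and below those of all genes called in either direction (9.28% and 13.2%). All the calls were lower, and the shares of all genes called lower were smaller (3.11% and 4.59%). Whether the members differ from all genes in this was not tested. Of the 4 members for Fc receptors and ITAM signalling, Fcgr1 (adjusted p = 0.803 and 0.9996) and Trem2 (adjusted p = 0.657 and 0.997) passed in neither genotype.

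Cybb, the catalytic subunit gp91phox of the NADPH oxidase, had intensities of 8178, 7844 and 8300 with GFP and 4396, 3636 and 3787 with Myc in Zfx wt cells, and 8748, 7389 and 8371 with GFP and 4982, 3682 and 3713 with Myc under the Zfx ko label. No array with Myc reached an array with GFP. Cybb was 2.06-fold lower (95% interval 1.72 to 2.48, adjusted p = 0.00162) in Zfx wt and 2.00-fold lower (95% interval 1.66 to 2.40, adjusted p = 0.00104) in Zfx ko. Of 6 other oxidase genes, 3 fell with Myc in Zfx wt and 5 in Zfx ko, and 0 rose. The cytosolic subunits Ncf4 (1.47-fold lower, adjusted p = 0.0066) and Ncf1 (1.39-fold lower, adjusted p = 0.00974) and the proton channel Hvcn1 (1.63-fold lower, adjusted p = 0.00899) fell in Zfx wt. Ncf4 was 1.65-fold lower (adjusted p = 0.00159) in Zfx ko, where Hvcn1 (1.65-fold lower, adjusted p = 0.00571), Ncf1 (1.39-fold lower, adjusted p = 0.0069) and Cyba, the membrane partner of Cybb (1.31-fold lower, adjusted p = 0.00833), fell as well.

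Fcgr4, a receptor for IgG on monocytes and neutrophils, read 586, 766 and 517 with GFP and 258, 369.5 and 205 with Myc in Zfx wt cells, and 772, 524 and 736 with GFP and 371, 264 and 294 with Myc under the Zfx ko label. Its groups did not overlap in either genotype. Fcgr4 was 2.28-fold lower (95% interval 1.59 to 3.27, adjusted p = 0.0117) in Zfx wt, a call that was lost without array 3 of Myc Zfx wt (adjusted p = 0.0501), and 2.18-fold lower (95% interval 1.52 to 3.13, adjusted p = 0.0113) in Zfx ko. Tyrobp, the ITAM adaptor DAP12 that signals for many receptors of myeloid cells, read 5913, 5526 and 5188 with GFP and 3853, 3891 and 2780 with Myc in Zfx wt, and 6907, 6166 and 6386 with GFP and 5488, 4710 and 3636 with Myc in Zfx ko, again without overlap. Tyrobp was 1.60-fold lower (95% interval 1.25 to 2.03, adjusted p = 0.0236) in Zfx wt. The Tyrobp call was lost without array 1 (adjusted p = 0.0814), 2 (0.0565) or 3 (0.0611) of GFP Zfx wt or array 3 of Myc Zfx wt (0.0859), and held with the replicate block (adjusted p = 0.00176). In Zfx ko Tyrobp missed the threshold (adjusted p = 0.0589) and passed it with the block (1.43-fold lower, 95% interval 1.22 to 1.67, adjusted p = 0.00495).

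The promoters of Cybb and Fcgr4 are shown as those of the members that passed with Myc in both genotypes, from the same source and with the same length. Capitals mark the CCAAT box in Cybb and the PU.1 core in Fcgr4, where it reads TTCCTC.
Cybb, chrX:9469325-9469574, minus strand: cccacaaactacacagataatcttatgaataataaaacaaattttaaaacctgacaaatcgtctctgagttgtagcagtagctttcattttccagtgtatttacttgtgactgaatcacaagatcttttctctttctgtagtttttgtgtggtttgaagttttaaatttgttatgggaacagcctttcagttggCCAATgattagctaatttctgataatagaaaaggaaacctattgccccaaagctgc
Fcgr4, chr1:171018676-171018925, plus strand: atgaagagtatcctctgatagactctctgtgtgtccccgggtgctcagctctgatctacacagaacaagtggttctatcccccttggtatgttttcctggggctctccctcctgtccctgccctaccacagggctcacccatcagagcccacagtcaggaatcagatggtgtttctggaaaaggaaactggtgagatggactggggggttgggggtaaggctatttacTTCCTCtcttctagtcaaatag
The CCAAT box begins 56 bases before the start of Cybb, and the PU.1 core begins 22 bases before that of Fcgr4. Neither window holds the Myc E-box CACGTG or the Zfx core AGGCCT.

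Other genes of Fc receptor and ITAM signalling fell as well. Of 17 such genes besides the members, 5 fell and 0 rose with Myc in Zfx wt, and 7 fell and 0 rose in Zfx ko, and with the replicate block 13 and 16 fell. Fgr, a Src family kinase of phagocytes, was 2.44-fold lower (adjusted p = 0.00136) in Zfx wt and 2.16-fold lower (adjusted p = 0.0014) in Zfx ko. Trem3 (1.35-fold lower, adjusted p = 0.011), the adaptor Lcp2 (1.39-fold lower, adjusted p = 0.0234) and the phospholipase Plcg2 (1.20-fold lower, adjusted p = 0.0423) fell in Zfx wt. Among 17 further phagocytic and scavenger receptors, Itgam and Itgb2, which together form the complement receptor CR3, were the 2 that fell in each genotype. Itgam read 3526, 3071 and 3891 with GFP and 1270, 1415 and 1511 with Myc in Zfx wt (2.49-fold lower, adjusted p = 7.10e-04), and 4497, 3438 and 4449 with GFP and 1956, 1764 and 1779 with Myc in Zfx ko (2.24-fold lower, adjusted p = 6.03e-04). Itgb2 was 2.00-fold lower (adjusted p = 0.00707) in Zfx wt and 1.87-fold lower (adjusted p = 0.00817) in Zfx ko.

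**Figure D3:**
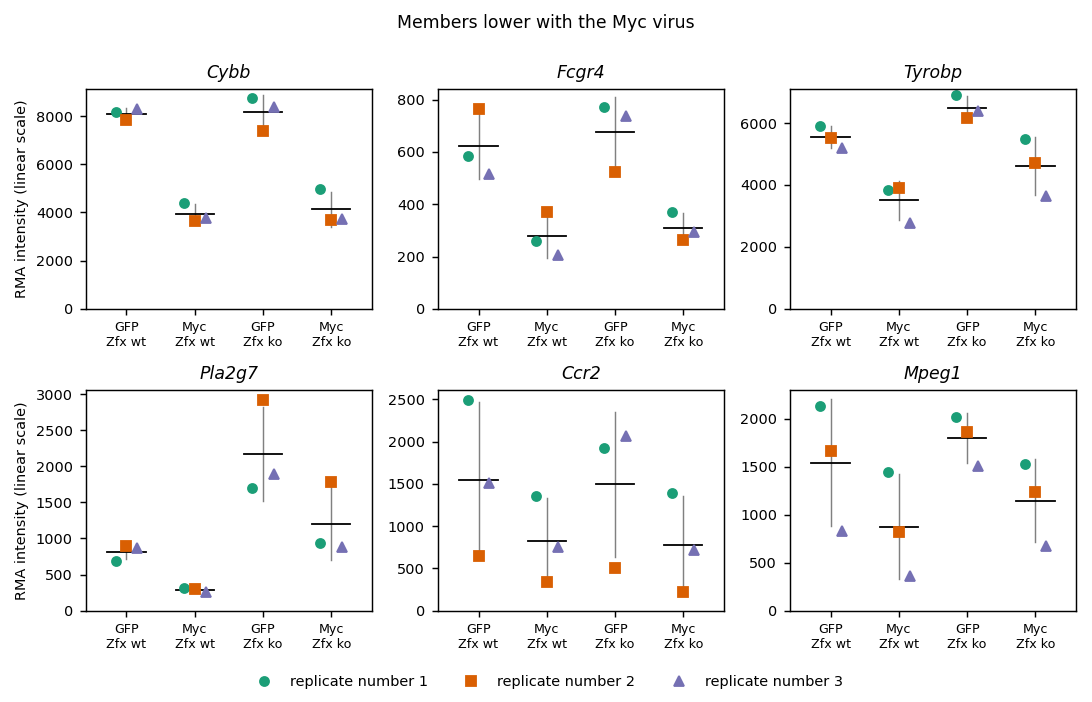
RMA intensity of Cybb, Fcgr4, Tyrobp, Pla2g7, Ccr2 and Mpeg1 in the 4 groups, with 1 point per array coloured by replicate number, a line at the mean and a bar of ± SD over 3 arrays. The 6 arrays with Myc lie below the 6 with GFP for Cybb, while for Ccr2 the groups overlap and the array with Myc lies below that with GFP within each number.

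Pla2g7, the secreted phospholipase that breaks down platelet-activating factor, differed by both virus and genotype. It read 694, 895 and 866 with GFP and 312, 305 and 258 with Myc in Zfx wt, and 1702, 2920 and 1887 with GFP and 938, 1786 and 882 with Myc under the Zfx ko label. With Myc it was 2.80-fold lower (95% interval 1.85 to 4.23, adjusted p = 0.00816) in Zfx wt, where the arrays did not overlap. In Zfx ko the arrays overlapped, the difference missed the threshold (adjusted p = 0.0544), and it passed with the block (1.85-fold lower, 95% interval 1.40 to 2.45, adjusted p = 0.00556). Apoe, a carrier of lipids made by macrophages, read 369, 331 and 325 with GFP and 389.9, 393 and 428 with Myc in Zfx wt, and 318, 334 and 372 with GFP and 392, 384 and 487 with Myc in Zfx ko. Its arrays did not overlap in either genotype, yet without the block it passed the test in neither (adjusted p = 0.184 and 0.0777). With the block Apoe was 1.23-fold higher (95% interval 1.08 to 1.40, adjusted p = 0.027) in Zfx ko and missed the threshold in Zfx wt (adjusted p = 0.0725). Over both genotypes Apoe was 1.21-fold higher (95% interval 1.08 to 1.34, adjusted p = 0.018).

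With the replicate block, 10 of 31 members passed in each genotype, 8 lower and 2 higher with Myc. The background was 20.5% of all genes called in Zfx wt (12.2% higher, 8.25% lower) and 24.9% in Zfx ko (14.5% higher, 10.4% lower). The block counts moved with the arrays used: leaving out all arrays numbered 1, 2 or 3 gave 11, 10 and 5 members in Zfx wt and 9, 11 and 5 in Zfx ko. Over both genotypes together, 5 members passed without the block, 4 lower and Apoe higher, against 21.2% of all genes (13.2% higher, 8.07% lower). With the block this count was 13, of which 10 were lower and 3 higher, against 32% (18.4% higher, 13.6% lower). Without the block, groups that did not overlap were found for 5 lower members and 1 higher in Zfx wt, against 9.44% and 15.1% of all genes, and for 3 lower and 2 higher in Zfx ko, against 9.88% and 15.6%.

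The receptors that passed only with the block were Ccr2, Cd14, Adgre1, Mrc1 and Csf1r. Ccr2, with the values given above, was lower with Myc in all 3 numbers, by -0.88, -0.93 and -0.99 on the log2 scale in Zfx wt. It was 1.91-fold lower (95% interval 1.41 to 2.58, adjusted p = 0.00806) in Zfx wt and 2.08-fold lower (95% interval 1.54 to 2.82, adjusted p = 0.00337) in Zfx ko with the block, and without it adjusted p was 0.673 and 0.552. Mrc1, the mannose receptor of macrophages, read 759.7, 1240 and 224 with GFP and 314, 636 and 99.4 with Myc in Zfx wt, and 371, 550.4 and 106 with GFP and 187, 698 and 125 with Myc in Zfx ko. With the block it was 2.20-fold lower (95% interval 1.54 to 3.13, adjusted p = 0.00687) in Zfx wt, and in Zfx ko it did not pass (adjusted p = 0.78). Csf1r, the receptor for Csf1 and IL-34, read 1110, 941 and 455 with GFP and 899, 435 and 281 with Myc in Zfx wt, and 1432, 2011 and 1224 with GFP and 1330, 1333 and 725 with Myc in Zfx ko. It passed over both genotypes with the block (1.51-fold lower, 95% interval 1.16 to 1.98, adjusted p = 0.0242) and in neither genotype alone.

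Cd14 and Adgre1 passed with the block in Zfx ko. Cd14 was 1.71-fold lower (95% interval 1.29 to 2.25, adjusted p = 0.0107) there, against adjusted p = 0.722 without the block. Adgre1 read 1137, 1854 and 593 with GFP and 1063, 1512 and 752 with Myc in Zfx wt, and 1418, 2221 and 1129 with GFP and 1168, 1587 and 778 with Myc in Zfx ko. It was 1.35-fold lower (95% interval 1.12 to 1.63, adjusted p = 0.0252) in Zfx ko with the block and overlapped between the groups. Of 16 ligands and signalling genes of the Csf1 receptor, 2 fell and 0 rose with Myc in Zfx wt, the ubiquitin ligase Cbl (1.31-fold lower, adjusted p = 0.0144) and the kinase subunit Pik3r1 (1.30-fold lower, adjusted p = 0.0359), and 4 fell and 0 rose in Zfx ko. Of 17 transcription factors of this lineage, Spi1 (PU.1) was the 1 that fell, 1.30-fold lower (adjusted p = 0.0301) in Zfx wt and 1.33-fold lower (adjusted p = 0.0166) in Zfx ko. Of 31 further monocyte and macrophage genes, 5 fell and 0 rose in each genotype (16 and 15 with the block). Among them were the lectin receptor Clec4a2 (2.16-fold lower in Zfx wt and 2.58-fold lower in Zfx ko, adjusted p = 0.00707 and 0.00204), the chemokine receptor Ccr1 (2.30-fold lower in Zfx wt and 2.19-fold lower in Zfx ko, adjusted p = 0.0119 and 0.0119) and the lysosomal protein Grn (1.43-fold lower in Zfx wt and 1.41-fold lower in Zfx ko, adjusted p = 0.0177 and 0.0156).

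Lysosomal and antigen processing genes moved in both directions with Myc. Mpeg1, perforin-2, a pore protein of phagosomes, read 2133, 1670 and 829 with GFP and 1450, 815 and 356 with Myc in Zfx wt, and 2020, 1866 and 1509 with GFP and 1530, 1236 and 677 with Myc in Zfx ko. With the block it was 1.91-fold lower (95% interval 1.36 to 2.70, adjusted p = 0.0148) in Zfx wt and 1.64-fold lower (95% interval 1.17 to 2.32, adjusted p = 0.0401) in Zfx ko. Lgmn, the endosomal protease legumain, was in contrast higher with Myc: it read 229.8, 505 and 155 with GFP and 438, 625 and 322 with Myc in Zfx wt, and 556, 1425 and 544 with GFP and 1579, 2207 and 1614 with Myc in Zfx ko. All 3 arrays of Myc Zfx ko lay above those of GFP Zfx ko, and with the block Lgmn was 1.70-fold higher (95% interval 1.24 to 2.34, adjusted p = 0.0262) in Zfx wt and 2.35-fold higher (95% interval 1.71 to 3.24, adjusted p = 0.0021) in Zfx ko. Without the block its adjusted p was 0.45 and 0.123. Cd86, a costimulator of T cells, read 109, 150.4 and 101 with GFP and 274, 216 and 128 with Myc in Zfx wt, and 187, 338 and 187 with GFP and 419, 338 and 218 with Myc in Zfx ko. With the block it was 1.65-fold higher (95% interval 1.17 to 2.34, adjusted p = 0.0457) in Zfx wt, and in Zfx ko it missed the threshold (adjusted p = 0.187).

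The difference of the class II chains with Myc depended on the number of the array. H2-Aa was lower with Myc by -1.43 and -0.81 on the log2 scale on arrays 1 and 3 of Zfx wt and differed by 0.09 on array 2. In Zfx ko the differences were -1.68, 0.93 and -1.29. H2-Ab1 differed by -0.73, -0.42 and 0.17 in Zfx wt and by -0.80, 0.68 and -1.01 in Zfx ko, and H2-Eb1 by -0.55, -0.27 and -0.48, then -0.65, 0.98 and -0.38. Array 2 was thus the one that went up with Myc in Zfx ko for all 3 chains, and none of them passed with all arrays. In the fit without the arrays numbered 2, chosen after the data were seen, and with the block, H2-Aa was 2.17-fold lower with Myc in Zfx wt (adjusted p = 0.00968) and 2.80-fold lower in Zfx ko (adjusted p = 0.00354). H2-Eb1 was then 1.43-fold lower in both (adjusted p = 0.0117 and 0.00917), and H2-Ab1 1.87-fold lower in Zfx ko (adjusted p = 0.0299), while in Zfx wt H2-Ab1 did not pass (1.22-fold lower, adjusted p = 0.509). Leaving out the arrays numbered 1 or 3 instead, with the block, gave no call of H2-Aa, H2-Ab1 or H2-Eb1 in either genotype.

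H2-DMa read 1408, 1364 and 1090 with GFP and 696, 1057 and 468 with Myc in Zfx wt, where the arrays did not overlap, and 1883, 2482 and 1321 with GFP and 1180, 3044 and 677 with Myc in Zfx ko, where they did. With the block it was 1.83-fold lower (95% interval 1.21 to 2.75, adjusted p = 0.0446) in Zfx wt, and without the block it missed the threshold (adjusted p = 0.381). Without the arrays numbered 2 the block gave 2.17-fold lower in Zfx wt (adjusted p = 0.00355) and 1.77-fold lower in Zfx ko (adjusted p = 0.00541). With the arrays numbered 1 or 3 left out instead, the block gave no call of H2-DMa in either genotype. Of 14 other class II genes, 1 fell in each genotype and 0 rose: Rfxank, a subunit of the factor RFX (1.13-fold lower, adjusted p = 0.0407), in Zfx wt, and Marchf1, a ubiquitin ligase that removes class II from the surface (1.61-fold lower, adjusted p = 0.0111), in Zfx ko. Of 15 genes of class I presentation, 3 fell in Zfx wt, tapasin Tapbp (1.41-fold lower, adjusted p = 0.00705), its relative Tapbpl (1.30-fold lower, adjusted p = 0.0087) and B2m (1.22-fold lower, adjusted p = 0.0208), and 4 fell and 1 rose in Zfx ko, with Tapbp 1.54-fold lower (adjusted p = 0.00191) and the immunoproteasome subunit Psmb10 1.36-fold higher (adjusted p = 0.0428). Of 16 dendritic cell genes, Icosl fell in both genotypes (1.50-fold lower in Zfx wt and 1.74-fold lower in Zfx ko, adjusted p = 0.0211 and 0.00395), Bst2 rose in Zfx wt (1.26-fold higher, adjusted p = 0.0337) and Clec9a fell in Zfx ko (1.47-fold lower, adjusted p = 0.0331).

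Marker genes of other cells moved with the virus as well. Of 13 neutrophil genes, 6 fell and 0 rose with Myc in Zfx wt and 9 fell and 0 rose in Zfx ko, among them Lcn2 (1.56-fold lower and 1.40-fold lower) and S100a8 (1.53-fold lower and 1.39-fold lower). The summed intensity of this list was 72530 to 90270 in GFP Zfx wt, 38020 to 51210 in Myc Zfx wt, 72450 to 92390 in GFP Zfx ko and 46520 to 53110 in Myc Zfx ko. Cybb, Fcgr4, Tyrobp and Itgam are also made by neutrophils. Of 14 mast cell and basophil genes, 6 fell and 1 rose in Zfx wt and 6 fell and 0 rose in Zfx ko, and their sum went from between 23860 and 30320 in GFP Zfx wt to between 10690 and 25920 in Myc Zfx wt, and from between 13370 and 18700 to between 5303 and 9447 in Zfx ko. Of 8 erythroid genes, 1 rose in Zfx wt and 5 in Zfx ko, and 0 fell. The summed intensity of 6 megakaryocyte and platelet genes was 7593 to 14360 with GFP and 2110 to 7621 with Myc in Zfx wt, and 21490 to 28000 and 5806 to 17150 in Zfx ko, with 0 genes called. That of 7 eosinophil genes was 10660 to 13410 and 3459 to 10650 in Zfx wt, and 6197 to 10560 and 3486 to 8389 in Zfx ko, with 0 genes called. The part of these cells in the values of the 31 genes was not tested.

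Under the Zfx ko label, Pla2g7 was higher with both viruses, and few other members passed without the replicate block. With GFP alone, 1 of 31 members passed, Pla2g7, higher, against 4.11% of all genes (1.17% higher, 2.94% lower). With Myc 2 passed, Pla2g7 and Lgmn, both higher, against 5.46% (1.74% higher, 3.72% lower). Over both viruses 3 passed, Pla2g7, Lgmn and Trem2, all higher, against 12.1% (4.73% higher, 7.34% lower). The median log2 difference of the 31 members was 0.32 with GFP, with 26 positive, and 0.51 with Myc, with 27 positive, and over all genes it was 0.00 to 2 decimals for both. The comparisons by genotype use the same 12 arrays as those by virus, so the 2 sets of differences share arrays.

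With the block, 9 members passed with GFP, 8 higher and Mrc1 lower, against 12.2% of all genes (5.12% higher, 7.12% lower). With Myc 10 passed, all higher, against 14.1% (6.05% higher, 8.03% lower), and over both viruses 13, 12 higher and Mrc1 lower, against 23% (10.5% higher, 12.5% lower). Leaving out all arrays numbered 1, 2 or 3 gave 9, 3 and 2 members with GFP, and 8, 6 and 7 with Myc. Pla2g7 and Lgmn passed in each of these 6 fits. Groups did not overlap for 7 members with GFP, 6 higher and Cx3cr1 lower, against 17.9% of all genes (7.44% higher, 10.5% lower), and for 3 higher and 0 lower with Myc, against 19.5% (8.4% and 11.1%).

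Pla2g7, with the values given above, did not overlap between the genotype labels with either virus. It was 2.59-fold higher (95% interval 1.72 to 3.92, adjusted p = 0.0179) under the Zfx ko label with GFP and 3.92-fold higher (95% interval 2.60 to 5.92, adjusted p = 0.00235) with Myc. The call with GFP was lost without array 1 (adjusted p = 0.0713) or 3 (0.0578) of GFP Zfx wt or array 2 of GFP Zfx ko (0.0569), and with the block its adjusted p was 0.00129. Lgmn, also given above, was 3.99-fold higher (95% interval 1.95 to 8.17, adjusted p = 0.0334) with Myc. That call was lost without array 1 of GFP Zfx wt (adjusted p = 0.0517), array 1 (0.0898) or 3 (0.129) of Myc Zfx wt, or array 1 (0.0659), 2 (0.111) or 3 (0.0841) of Myc Zfx ko. With the block Lgmn was 2.88-fold higher (95% interval 2.10 to 3.96, adjusted p = 0.00149) with GFP and had adjusted p = 2.90e-04 with Myc. Its log2 differences by number were 1.27, 1.50 and 1.81 with GFP and 1.85, 1.82 and 2.32 with Myc.

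Trem2, a lipid receptor of macrophages and microglia that signals through Tyrobp, read 602, 472 and 276 in GFP Zfx wt and 662, 861 and 643 in GFP Zfx ko, and 489, 297 and 253 in Myc Zfx wt and 858, 744 and 564 in Myc Zfx ko. The genotype labels did not overlap with either virus. Over both viruses Trem2 was 1.89-fold higher (95% interval 1.35 to 2.64, adjusted p = 0.0194). With each virus alone it passed with the block only, 1.67-fold higher with GFP (adjusted p = 0.283 without the block, 0.0319 with it) and 2.14-fold higher with Myc (adjusted p = 0.0722 and 0.00452). Tyrobp itself did not overlap with GFP, and passed with the block with Myc (1.31-fold higher, 95% interval 1.12 to 1.53, adjusted p = 0.0295). Fgr, a kinase on the same path, was the 1 of 17 further Fc and ITAM genes that rose with Myc (1.55-fold higher, adjusted p = 0.0297), and with GFP 0 passed.

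**Figure D4:**
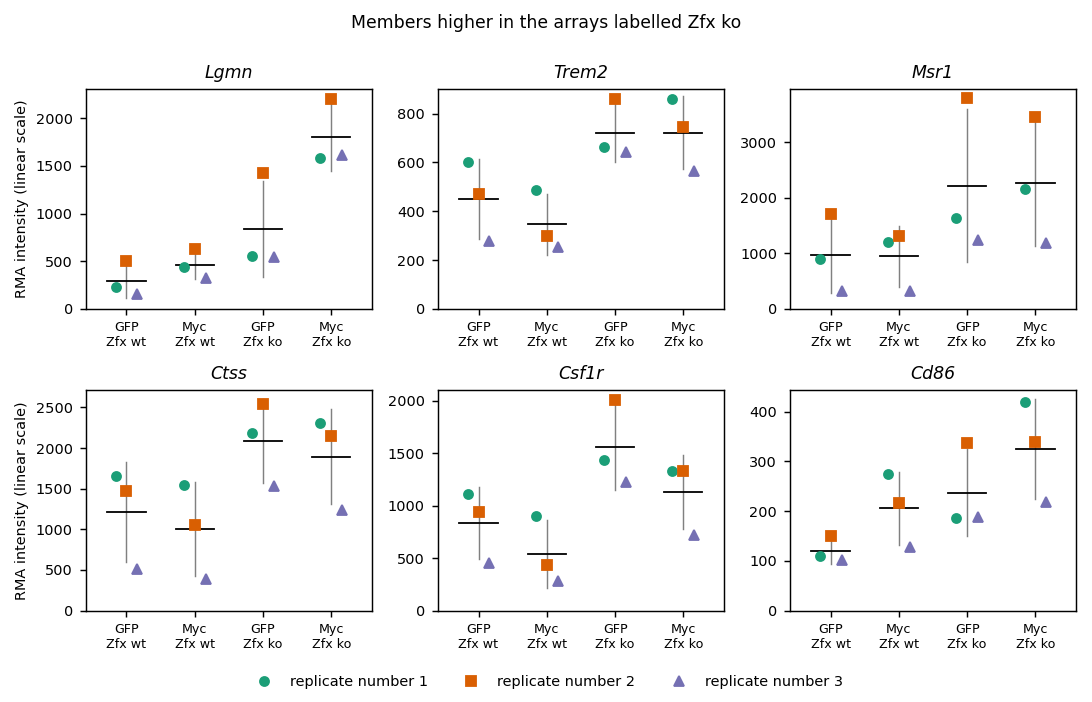
RMA intensity of Lgmn, Trem2, Msr1, Ctss, Csf1r and Cd86 in the 4 groups, with 1 point per array coloured by replicate number, a line at the mean and a bar of ± SD over 3 arrays. The 3 arrays of Myc Zfx ko lie above the 3 of Myc Zfx wt for Lgmn and Trem2, and the groups overlap for Msr1.

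Among the scavenger and lectin receptors, Msr1 and Mrc1 went opposite ways. Msr1, the class A scavenger receptor, read 894, 1712 and 325 in GFP Zfx wt and 1629, 3793 and 1241 in GFP Zfx ko, and 1208, 1319 and 319 in Myc Zfx wt and 2156, 3454 and 1186 in Myc Zfx ko. The groups overlapped, and within each number the array labelled Zfx ko was the higher. With the block Msr1 was 2.49-fold higher (95% interval 1.70 to 3.64, adjusted p = 0.00737) with GFP and 2.59-fold higher (95% interval 1.77 to 3.78, adjusted p = 0.00518) with Myc. Mrc1 was with the block 2.14-fold lower (95% interval 1.50 to 3.05, adjusted p = 0.0126) with GFP, and with Myc it did not pass (adjusted p = 0.888). Of 17 further receptors of this kind, Stab1, a scavenger receptor of macrophages and endothelium, was the 1 that rose with each virus (1.66-fold higher with GFP and 1.47-fold higher with Myc, adjusted p = 0.013 and 0.0379).

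Csf1r was with the block 1.95-fold higher (95% interval 1.33 to 2.85, adjusted p = 0.0308) with GFP and 2.27-fold higher (95% interval 1.55 to 3.32, adjusted p = 0.0106) with Myc, and without the block its adjusted p was 0.369 and 0.205. Of 16 ligands and signalling genes of this receptor, 0 passed with GFP and 1 fell with Myc, the kinase Akt1 (1.23-fold lower, adjusted p = 0.0398). Adgre1 was 1.42-fold higher (95% interval 1.18 to 1.71, adjusted p = 0.024) with GFP, with the block. Ctss, cathepsin S, which trims the invariant chain, read 1652, 1471 and 506 in GFP Zfx wt and 2180, 2546 and 1528 in GFP Zfx ko, and 1548, 1057 and 394 in Myc Zfx wt and 2306, 2147 and 1232 in Myc Zfx ko. With the block it was 1.90-fold higher (95% interval 1.33 to 2.73, adjusted p = 0.0283) with GFP and 2.12-fold higher (95% interval 1.48 to 3.03, adjusted p = 0.0126) with Myc, and its groups overlapped. Cd86 did not overlap with GFP and was 1.92-fold higher (95% interval 1.36 to 2.71, adjusted p = 0.0228) with the block. Gpnmb, with the block, was 2.93-fold higher (95% interval 1.46 to 5.88, adjusted p = 0.0474) with Myc.

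In the class II group, Cd74 and H2-DMa passed with the block with Myc and 0 of the 6 members passed with GFP. Cd74 was 2.56-fold higher (95% interval 1.93 to 3.41, adjusted p = 0.00126) with Myc and H2-DMa 1.92-fold higher (95% interval 1.27 to 2.90, adjusted p = 0.0426). Without the arrays numbered 2 both kept that call, Cd74 at 2.57-fold higher (adjusted p = 0.0254) and H2-DMa at 1.57-fold higher (adjusted p = 0.0231). Without the arrays numbered 1, or without those numbered 3, Cd74 kept the call and H2-DMa lost it. Of 14 other class II genes, Rfxap, a subunit of RFX, fell with each virus (1.28-fold lower with GFP and 1.42-fold lower with Myc, adjusted p = 0.017 and 0.00248), and Marchf1 rose with GFP (1.57-fold higher, adjusted p = 0.0305). Of 15 class I genes 0 passed with either virus, and over both viruses B2m was 1.16-fold higher (adjusted p = 0.0133). Of 16 dendritic cell genes, Icosl rose with GFP (1.50-fold higher, adjusted p = 0.0359) and Bst2 fell with Myc (1.38-fold lower, adjusted p = 0.0112).

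**Figure D5:**
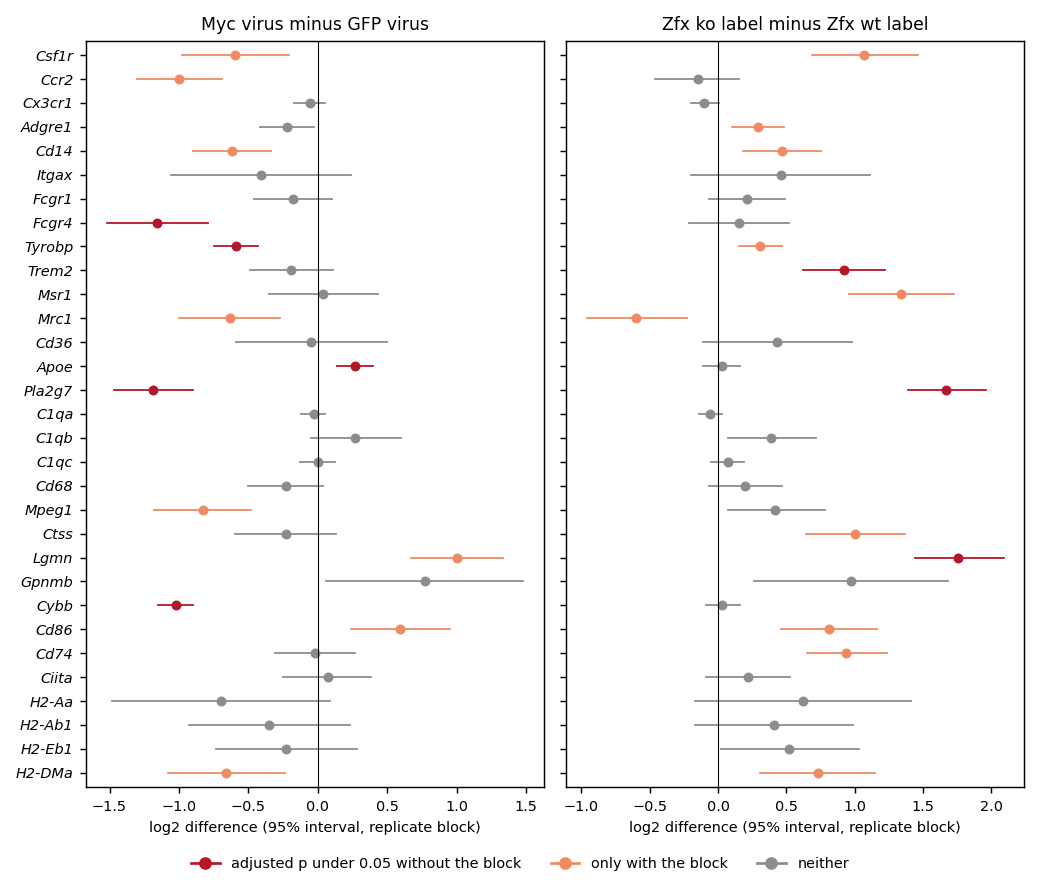
Log2 differences of the 31 genes with 95% intervals from the fit with the replicate block, 1 point per gene and panel. The left panel is Myc minus GFP over both genotypes, and the right panel is Zfx ko minus Zfx wt over both viruses. Dark red marks genes called also without the block, orange those called only with it and grey the rest. Cybb lies at -1.02 in the comparison by virus and Pla2g7 at 1.67 in that by genotype.

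Few further genes of monocytes and macrophages passed by genotype without the block. Of 31 such genes 0 passed with GFP (4 rose with the block) and 1 rose with Myc (13 rose and 1 fell with the block), and the median log2 difference was 0.28 and 0.34. The lectin receptor Clec4a3 was 3.64-fold higher (adjusted p = 0.0106) with Myc. Over both viruses Clec4a3 (2.74-fold higher, adjusted p = 0.00281), Ly96, the partner of Tlr4 (2.09-fold higher, adjusted p = 0.0193), and Clec4a1 (1.61-fold higher, adjusted p = 0.0428) rose, and Plac8 (1.33-fold lower, adjusted p = 0.0367) fell. Of 17 transcription factors 0 passed with either virus alone, and over both Zeb2 (1.58-fold higher, adjusted p = 0.0216) and Maf (1.28-fold higher, adjusted p = 0.0136) rose. Of 6 other oxidase genes 0 passed with either virus, with medians of -0.06 and -0.14. Cybb did not pass either (adjusted p = 0.996 with GFP and 0.959 with Myc).

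Markers of other lineages differed with the genotype label too. The summed intensity of 6 megakaryocyte and platelet genes was 7593 to 14360 in GFP Zfx wt and 21490 to 28000 in GFP Zfx ko, and 2110 to 7621 and 5806 to 17150 with Myc, and 1 gene, Treml1, rose with GFP (2.15-fold higher, adjusted p = 0.0381). Of 14 mast cell and basophil genes, 3 fell and 0 rose with GFP, among them Prss34 (8.98-fold lower, adjusted p = 5.25e-04), and 5 fell and 0 rose with Myc. Of 8 erythroid genes 4 rose with Myc and 0 passed with GFP, and of 13 neutrophil genes 1, Mmp8, rose with each virus. Their part in the values of the 31 genes was not tested.

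Whether the genotype label altered the response to Myc was tested as an interaction. For 0 of 31 members, and 0 of 19938 genes (0%), did limma give an adjusted p under the threshold, while 343 genes (1.72%) and 0 members had an unadjusted p under 0.05. With the block 0 members and 1 gene (0.00502%) passed, and 939 genes (4.71%) and 4 members, Adgre1, Mrc1, Pla2g7 and Cd74, had an unadjusted p under 0.05. The calls of Tyrobp and Pla2g7 with Myc in Zfx wt but not in Zfx ko without the block are therefore not shown to be a difference between the genotypes.

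In all, 7 of the 31 members passed in some contrast without the block and 19 with or without it. The other 12 were Cx3cr1, Itgax, Fcgr1, Cd36, C1qa, C1qb, C1qc, Cd68, Ciita, H2-Aa, H2-Ab1 and H2-Eb1. Fcgr1, the high-affinity receptor for IgG, read 561, 494 and 271 in GFP Zfx wt, 483, 436 and 167 in Myc Zfx wt, 474, 482 and 351 in GFP Zfx ko and 624, 437 and 293 in Myc Zfx ko. Cd68, a glycoprotein of late endosomes, read 2235, 2870 and 1280 in GFP Zfx wt, 2368, 1777 and 1021 in Myc Zfx wt, 2140, 2975 and 1648 in GFP Zfx ko and 2673, 2105 and 1355 in Myc Zfx ko, with the lowest array of each group at number 3. The C1q chains, which start the classical complement pathway and are made by tissue macrophages, were dim: C1qa stayed between 68.2 and 84.2 and C1qc between 76.4 and 115, below the median of all probe sets (131). C1qb read 85.7, 68.7 and 130.4 in GFP Zfx wt, 81.9, 94.8 and 137 in Myc Zfx wt, 115, 81.6 and 145 in GFP Zfx ko and 113, 90.6 and 301 in Myc Zfx ko, with its highest value on array 3 of each group. Cd36 and Ciita also had a mean below that median, which left 26 of 31 members above it.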

How the data were processed

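Total RNA, 200 ng a sample, was measured on 12 expression arrays. The authors deposited 1 intensity per probe set and array, made with RMA per the submitters' processing notes; software, version and genome build were not given in the sources used here. It was planned to take the deposited values as log2, but they are linear intensities, so log2 was taken and no pseudocount was added. RMA's equalised distributions can damp a shift shared by most genes. Of 35556 probe sets, 21789 have 1 symbol, 1621 several and 12146 are not listed or have no symbol. Keeping the brightest probe set of each gene left 19938 genes, with no filter on dim ones.

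Means of the 4 groups were fitted with limma 3.58.1 (lmFit, eBayes, R 4.3.3; 8 residual degrees of freedom, 6 with the replicate block) and tested on simulated data. Groups and numbers came from the sample titles. Same-numbered arrays deviated together: 18 pairs correlated at 0.40 to 0.85 (median 0.64). All 12 arrays lay closest to their own number, so the numbers pair the arrays. Other numbers correlated at a median of -0.42. Values were centred within each group of 3, which pushes that median below 0, so it is not separate evidence of pairing. Array number limits the precision. Alternatives covered the block, scaling, array weights, the prior, filters, left-out arrays and a 2-fold minimum. Full values are given for members past the threshold in any contrast and for 1 or 2 others per role, and up to 4 genes per pathway list and 3 per marker list, lowest p first. The members and lists were chosen with earlier results of these data known. Promoter windows came from RefSeq (GRCm38.p6), and 10 members had none in the table.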

Additional observations from a re-analysis of the deposited data

Results flagged for a closer look

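The response of Cd74 to Myc had opposite signs under the 2 genotype labels. All members were searched for such opposite signs, and how many of all genes show them was not counted. With Myc, Cd74 was lower in 3 of 3 numbers in Zfx wt, with a mean log2 difference of -0.43, and higher in 3 of 3 numbers in Zfx ko, with 0.40, so the 2 differed by 0.83. The interaction did not pass in limma (adjusted p = 0.9999 without the replicate block, 0.976 with it, and unadjusted p = 0.0102 with it).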

How the results depend on the processing

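None of the 17 calls of members without the block changed direction under an alternative. Among the 6 class II members, some differences that did not pass changed sign without the arrays numbered 2 and with the replicate block. H2-Ab1 by genotype with Myc went from 0.38 to -0.27 (log2), and Ciita with Myc from 0.20 to -0.10 in Zfx ko and from 0.07 to -0.11 over both genotypes. Sign changes of the other members in that fit are not listed. Itgax by genotype was higher on number 2 only, by -0.10, 1.02 and -0.07 over numbers 1, 2 and 3 with GFP and -0.19, 2.13 and -0.06 with Myc. With the replicate block, which the pairing of the arrays calls for, 10 members passed with Myc in Zfx wt, 10 in Zfx ko and 13 over both, and 9 by genotype with GFP, 10 with Myc and 13 over both, and the calls over all genes went from 1851 to 4082, 2626 to 4959, 4236 to 6380, 819 to 2440, 1089 to 2808 and 2406 to 4583 in that order of comparisons, and from 0 to 1 for the interaction. Other settings that moved the count of members by over 1.5 times were array weights (4 with Myc in Zfx ko, 2 by genotype with GFP and 5 over both viruses), only genes above the median (4 with Myc in Zfx ko and 5 by genotype over both viruses), a 2-fold minimum (1 with Myc in Zfx ko and 3 over both genotypes) and the trended, robust prior (1 by genotype with Myc). Leaving out 1 array gave 2 to 4 members with Myc in Zfx wt, 2 to 3 in Zfx ko, 5 to 7 over both, 0 to 2 by genotype with GFP, 1 to 3 with Myc, 3 to 6 over both and 0 for the interaction. Leaving out all arrays of 1 number, an alternative added after seeing the data, gave 0 to 4, 0 to 6, 3 to 9, 0 to 2, 0 to 2 and 1 to 3, and with the block 5 to 11, 5 to 11, 10 to 16 (14 without number 1), 2 to 9, 6 to 8 and 10 to 11. Calls over all genes moved to 3209 and 1610 with array weights (Myc in Zfx wt, genotype with GFP), to 1418 and 562 with only the groups compared (Myc in Zfx ko, genotype with Myc), and to 120, 190, 166, 131, 192 and 197 with a 2-fold minimum. Leaving out 1 array gave 838 to 2044 genes with Myc in Zfx wt, 1395 to 2555 in Zfx ko, 410 to 802 by genotype with GFP and 578 to 1098 with Myc. The cause was not tested, beyond the smaller number of arrays or genes. Of the 5 members below the median intensity of all probe sets, 0 passed in any contrast, and the smallest difference called among the members was that of Apoe over both genotypes (1.21-fold).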
